A study of Mus musculus with 14 samples.

Results

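The genes described here encode growth factors and receptor tyrosine kinases, and their mRNA was measured in mouse livers with and without the microRNA miR-122. They were taken by symbol from the authors' deposited results table of the 5-week livers. The pattern covers the fibroblast growth factors (FGFs) except Fgf21 together with the FGF receptors Fgfr1 to Fgfr3 and Fgfrl1. It also covers Egf and its receptor, the Erbb, Vegf, Eph and ephrin families, Flt1, Flt3 and Flt4, and 11 genes listed by name. Of 12871 genes in that table, 42 fitted. The same pattern fits 71 protein-coding symbols of RefSeq, and 31 of these have no row in the table analysed here. Among them are the EGF family ligands Areg and Ereg, the MSP receptor Mst1r, Vegfc, Vegfd, 15 FGFs, 8 Eph receptors and 3 ephrins. In every row of the table at least one genotype averaged 4.94 or more on the log2 scale, so genes low in both genotypes may be missing. Counts below describe the 42 rows and not the 71 symbols. The pattern also took in Erbin (listed as Erbb2ip), Cep43 (listed as Fgfr1op) and Fgfr1op2, which are neither factors nor receptors, so that 39 growth factors and receptors remained.

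The series holds 14 samples of liver total RNA from male mice of a C57/BL6J background. At 5 weeks of age there were 2 knockout and 2 control samples, and at 8 weeks 5 knockout and 5 wild-type samples, which are not analysed here. The sample genotypes give the 5-week knockout (KO) as miR-122loxP/loxP with Alb-Cre, and the 5-week control as miR-122loxP/loxP without it. All 4 samples therefore carry the loxP-flanked alleles, although the control titles read wild type. In the design text the 5-week knockout is instead a germ-line deletion. Alb-Cre is driven by the albumin promoter, so with it the deletion concerns hepatocytes and cells derived from albumin-expressing precursors and spares the other cells of the liver. Under the germ-line reading, every cell would lack miR-122. The labels do not say that the samples came from separate mice, so the p-values measure only the spread between these samples, which may be technical.

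A receptor tyrosine kinase is a membrane protein whose cytoplasmic part phosphorylates tyrosines once a ligand has brought receptor chains together, and adaptors then pass the signal to the RAS-ERK and PI3K-AKT cascades. In liver, hepatocyte growth factor (HGF) from non-parenchymal cells acts on its receptor MET on hepatocytes, and EGF family ligands act on EGFR, which hepatocytes carry in large amounts. Vascular endothelial growth factor A (VEGFA) from hepatocytes acts on the endothelium, and the discoidin domain receptors DDR1 and DDR2 are activated by collagen.

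Values are log2 signals of Affymetrix whole-transcript arrays after robust multi-array averaging (RMA), given for each of the 4 arrays. Differences are KO minus control on that log2 scale, with the standard error (SE) of the limma fit over all 12871 genes. The words rose and fell are kept for genes with a Benjamini-Hochberg adjusted p under 0.05. The array medians over all 35556 probe sets lay between 5.92 and 5.96. As a guide to background, 41 olfactory receptor genes had a median level of 5.98. The hepatocyte markers were high in all 4 samples, with albumin (Alb) at 13.66 and 13.68 in KO and at 13.65 and 13.71 in control livers. miR-122 itself is not named in any row, and the loss of the microRNA could not be checked. Only 2 arrays per genotype limit the precision of every value.

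Egfr, Fgf1 and Vegfa were lower in KO livers. Ddr1, Hgf, Fgfr1, Flt3, Btc and Erbin were higher. The changes ran from 2.37-fold higher for Ddr1 to 2.37-fold lower for Egfr, and no Eph receptor or ephrin passed the test. In all, 9 of the 42 genes (21.4%) passed with limma, 6 higher and 3 lower, and 33 did not pass. Among all 12871 genes, 15.0% passed, 10.8% higher and 4.15% lower, so the share among the 42 lay near that background. The median absolute log2 difference was 0.21 over the 42 genes and 0.19 over all genes. Both KO arrays lay outside the range of both control arrays for 21 of the 42 genes, against 59.1% of all genes. In 16 of them the KO arrays were the higher ones, against 32.1% of all genes, and in 5 the lower ones, against 27.0%. Of the 18 ligands, 2 rose and 2 fell, with a median log2 difference of -0.03. Of the 21 receptors, 3 rose and 1 fell, with a median of 0.23, against 0.005 over all genes.

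These calls rest on few arrays. With any 1 array left out and the fit repeated, 1 genotype keeps a single array. The calls were then lost over all 12871 genes and not only among the 42. These fits therefore cannot single out the 42 as less stable than other genes. In those fits the log2 difference ran from 1.105 to 1.385 for Ddr1, from -1.415 to -0.975 for Fgf1 and from -1.495 to -0.995 for Egfr. It ran from -0.74 to -0.56 for Vegfa, 0.48 to 0.55 for Hgf and 0.44 to 0.52 for Fgfr1. For Flt3 it was 0.5 to 0.82, for Btc 0.4 to 0.48 and for Erbin 0.415 to 0.545. With the spread prior held at that of all 4 arrays, a setting chosen after seeing the data, 2 passed without KO 1, 3 without KO 2, 3 without control 1 and 5 without control 2. Ddr1 and Fgf1 passed in each of these 4 fits and Egfr in all but the one without KO 1. Vegfa passed only in the fit without control 2. Hgf, Fgfr1, Flt3, Btc and Erbin passed in none of these 4 fits.

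**Figure D1:**
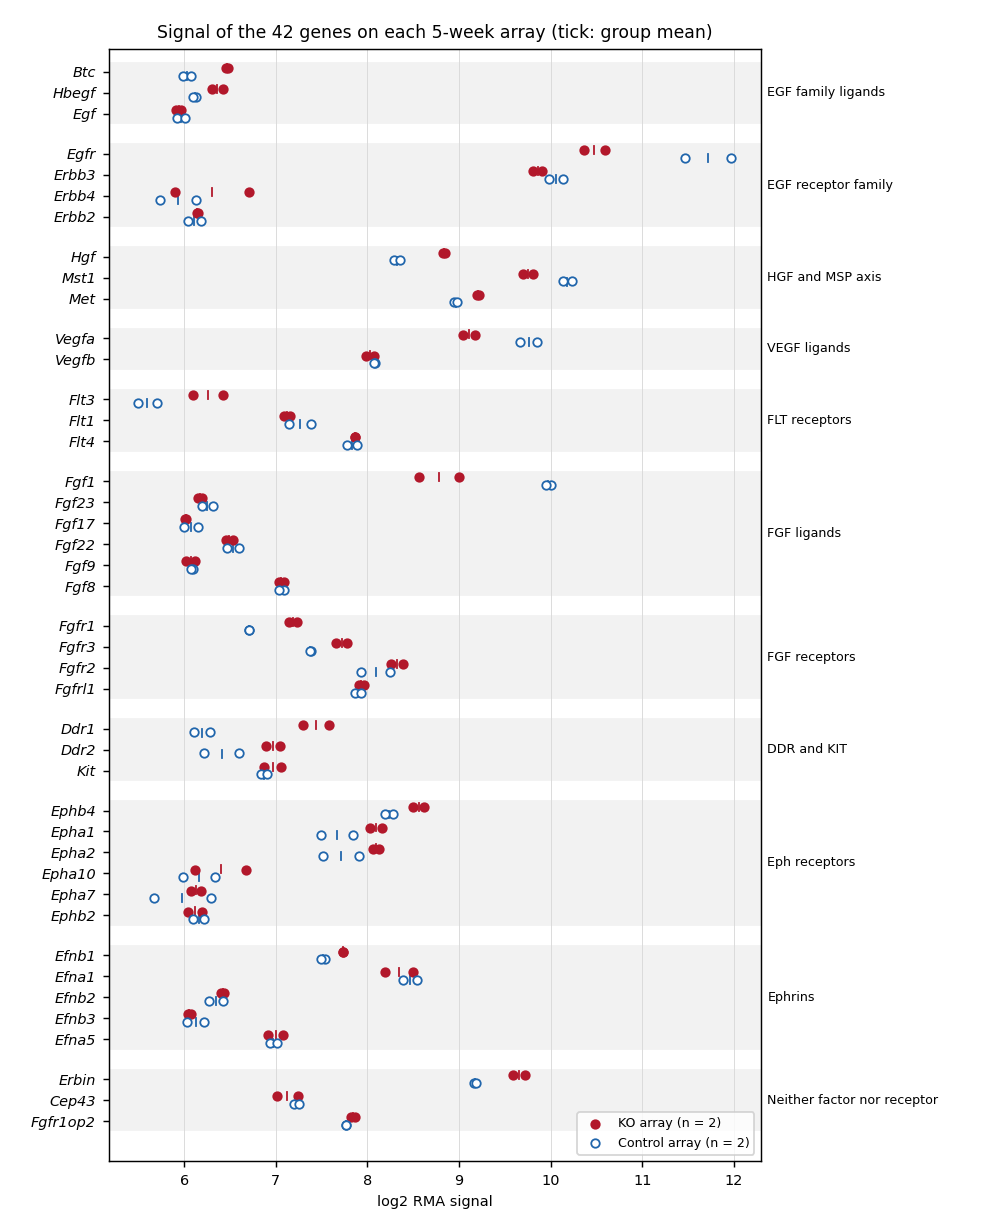
Log2 RMA signal (x axis) of the 42 genes (y axis, grouped by family) on the 4 arrays of 5-week livers. Filled red points are the 2 KO arrays, open blue points the 2 control arrays and ticks the group means. Egfr, Fgf1 and Vegfa have both KO points to the left of both control points, and Ddr1 has both KO points to the right.

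The promoter windows of 4 of the 9 genes that passed are shown because Egfr and Vegfa were lower and Ddr1 and Hgf higher in KO livers. Each holds the 250 bases before the first listed start of the gene, from RefSeq on GRCm38.p6, read 5′ to 3′ on the gene's strand. RefSeq lists 2 windows for Vegfa, 4 for Ddr1 and 2 for Hgf, of which the first is shown. Capitals mark matches to the motifs searched. The Egfr window is chr11:16751953-16752202 on the plus strand and the Vegfa window chr17:46032378-46032627 on the minus strand. The Ddr1 window is chr17:35704600-35704849 on the minus strand and the Hgf window chr5:16553245-16553494 on the plus strand.
Egfr: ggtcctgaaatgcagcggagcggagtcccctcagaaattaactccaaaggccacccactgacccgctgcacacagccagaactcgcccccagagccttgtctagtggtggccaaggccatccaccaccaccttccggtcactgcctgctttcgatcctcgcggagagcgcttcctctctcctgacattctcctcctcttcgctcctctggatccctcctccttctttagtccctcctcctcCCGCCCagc
Vegfa: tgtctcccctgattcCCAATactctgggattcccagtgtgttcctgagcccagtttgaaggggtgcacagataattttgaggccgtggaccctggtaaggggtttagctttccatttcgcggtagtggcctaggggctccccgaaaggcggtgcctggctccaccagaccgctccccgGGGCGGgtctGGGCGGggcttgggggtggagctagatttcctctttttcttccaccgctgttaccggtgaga
Ddr1: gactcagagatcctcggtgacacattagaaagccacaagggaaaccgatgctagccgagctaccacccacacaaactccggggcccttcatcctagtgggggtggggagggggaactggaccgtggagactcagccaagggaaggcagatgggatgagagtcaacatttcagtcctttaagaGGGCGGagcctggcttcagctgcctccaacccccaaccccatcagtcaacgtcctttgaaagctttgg
Hgf: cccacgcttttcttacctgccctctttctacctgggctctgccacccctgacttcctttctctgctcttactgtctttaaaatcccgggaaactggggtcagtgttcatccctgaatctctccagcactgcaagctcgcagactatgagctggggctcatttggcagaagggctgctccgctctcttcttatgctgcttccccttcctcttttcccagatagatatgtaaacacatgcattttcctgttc
The motifs searched on both strands were the GC box GGGCGG, the TATA box TATAAA, the CCAAT box CCAAT, the hypoxia response core ACGTG and the AP-1 site TGANTCA. The Egfr window held 1 GC box, close to its 3′ end. The Vegfa window held 2 GC boxes and 1 CCAAT box. The Ddr1 window held 1 GC box, and none of these letters occurred in the Hgf window. G and C made up 60.8% of the bases of the Egfr window, 59.2% of the Vegfa window, 56.8% of the Ddr1 window and 50.8% of the Hgf window, and the median over 9888 measured genes was 59.6%. Of the 42 genes 35 had a window. The GC box occurred in 22 of these 35 (62.9%), against 57.6% of all 9888 windows, and the CCAAT box in 13 of the 35 (37.1%), against 36.1%. The hypoxia response core was found in 3 of the 35 (8.57%), against 21.6% of all windows, and the AP-1 site in 1 (2.86%), against 4.56%. The TATA box occurred in 3 of the 35, against 7.16% of all windows. These matches describe letters within the window only.

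The EGF system had 3 ligands and 4 receptors with a row, and its main liver receptor was lower in KO livers. Egfr, the receptor of EGF, TGF-alpha, betacellulin and related ligands, had log2 signals of 10.36 and 10.59 in KO livers, against 11.97 and 11.47 in control livers. Both KO values lay below both control values, and the control arrays were 0.5 apart. The difference was -1.25 ± 0.19 (SE, n = 2 each), a 2.37-fold lower level, with a 95% interval of -1.70 to -0.79 and an adjusted p of 0.0109 (limma, Benjamini-Hochberg). Without KO 1 and with the spread prior held, the adjusted p with limma was 0.0574 and the difference -1.13.

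The other receptors of the family did not pass. Erbb3, a receptor of neuregulins with little kinase activity of its own, had 9.91 and 9.81 in KO livers, against 10.14 and 9.98 in control livers. Its difference of -0.20 had an adjusted p of 0.297 in the limma fit. Erbb2, the receptor without a known ligand that pairs with the others, had a difference of 0.04 with a 95% interval of -0.23 to 0.30. Erbb4, a second neuregulin receptor, had 5.90 and 6.71 in KO livers, against 5.74 and 6.13 in control livers, so its groups overlapped and its control mean lay below the olfactory receptor median.

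Among the EGF family ligands, betacellulin rose. Btc, which binds EGFR and ERBB4, had 6.46 and 6.48 in KO livers, against 5.99 and 6.07 in control livers. The KO values lay above both control values, by 0.44 ± 0.10 (SE, n = 2 each), or 1.36-fold, with an adjusted p of 0.0394 in the limma fit. Control values of Btc were close to the olfactory receptor median of 5.98. Adjusting the p-values of the authors' deposited table over the same genes gave 0.0577 for Btc, which ends the call. Hbegf, the heparin-binding ligand of EGFR, had 6.42 and 6.30 in KO livers, against 6.13 and 6.10 in control livers, a difference of 0.25 that did not pass (limma adjusted p = 0.184). Egf itself had 5.97 and 5.91 in KO livers, against 5.92 and 6.01 in control livers, and these groups overlapped. Both group means of Egf lay below the olfactory receptor median.

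In the HGF and MSP pair of systems, the ligand Hgf was higher in KO livers. HGF is a growth factor for hepatocytes, made in liver mainly by stellate cells. Hgf had 8.83 and 8.85 in KO livers, against 8.29 and 8.36 in control livers. The 2 KO arrays were 0.02 apart and the 2 control arrays 0.07 apart. The difference was 0.52 ± 0.10 (SE, n = 2 each), or 1.43-fold higher, with an adjusted p of 0.0242 in the limma fit. Met, the HGF receptor, had 9.22 and 9.20 in KO livers, against 8.95 and 8.98 in control livers. Its groups did not overlap, but the difference of 0.25 had a 95% interval that reached -0.0015 and a limma adjusted p of 0.165.

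Mst1 encodes macrophage-stimulating protein (MSP), an HGF relative that hepatocytes secrete. It had 9.70 and 9.81 in KO livers, against 10.23 and 10.13 in control livers. Both KO values were below both control values, and the difference of -0.43 ± 0.11 (SE, n = 2 each) missed the threshold, with a limma adjusted p of 0.0508. With the genes below the 40th percentile of mean signal left out before the fit, its limma adjusted p was 0.0467. HGF and MSP are both secreted as inactive precursors, and Hgfac encodes a liver serine protease that cleaves them. Hgfac had 8.81 on both KO arrays, against 9.88 and 9.91 on the control arrays, and fell 2.12-fold (limma adjusted p = 0.00309). St14, encoding the membrane protease matriptase, which also activates HGF, was higher by 0.84 ± 0.14 on the log2 scale with a limma adjusted p of 0.0148. Spint1, encoding an inhibitor of both proteases, was higher by 0.56 with a limma adjusted p of 0.0196. Hpn, encoding hepsin, another membrane protease that cleaves HGF, did not pass, with a difference of -0.26 and a limma adjusted p of 0.233.

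The endothelial growth factor Vegfa was lower in KO livers. VEGFA drives growth and permeability of vessels and keeps the sinusoidal endothelium in its fenestrated state. Its probe set had 9.18 and 9.04 in KO livers, against 9.85 and 9.67 in control livers. The groups did not overlap, and the difference of -0.65 ± 0.12 (SE, n = 2 each) was a 1.57-fold lower level, with an adjusted p of 0.0193 in the limma fit. Vegfb, a ligand of FLT1, had a difference of -0.05 with a 95% interval of -0.30 to 0.21. Among the receptors, Flt1, which binds VEGFA and VEGFB, had 7.16 and 7.09 in KO livers, against 7.39 and 7.14 in control livers, and its groups overlapped. Kdr, the main signalling receptor of VEGFA, had a difference of 0.07 and a limma adjusted p of 0.703. Nrp1, a co-receptor of VEGFA, had 9.13 and 9.03 in KO livers, against 10.02 and 9.48 in control livers, and did not pass (limma adjusted p = 0.0624). Flt4, the receptor of VEGFC and VEGFD, differed by 0.04.

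Flt3 shares the name but is a receptor of blood cell precursors and dendritic cells. It had 6.42 and 6.10 in KO livers, against 5.70 and 5.50 in control livers. Both KO values lay above both control values, by 0.66 ± 0.15 (SE, n = 2 each), or 1.58-fold, and the limma adjusted p was 0.0335. Its control mean of 5.60 lay below the olfactory receptor median. From the p-values of the authors' deposited table the adjusted p was 0.0513, which ends the call. The ligand gene Flt3l had a difference of 0.02.

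Fgf1 was the one FGF ligand with a row that passed, and it fell. FGF1 binds all FGF receptors and, in mice, lowers blood glucose when given as a protein. Fgf1 had 9.0 and 8.56 in KO livers, against 10.00 and 9.95 in control livers. The KO arrays were 0.44 apart and the control arrays 0.05 apart. The difference was -1.20 ± 0.16 (SE, n = 2 each), a 2.29-fold lower level, with an adjusted p of 0.00831 in the limma fit. The other 5 FGF ligands with a row did not pass and their groups overlapped. Their differences ran from -0.08 for Fgf23, the phosphate hormone of bone, to -0.005 for Fgf8, with Fgf17, Fgf22 and Fgf9 between them. For each of these 5 the 95% interval of the difference included 0. Group means of Fgf17 (6.015 in KO and 6.075 in control livers) and Fgf9 (6.07 and 6.085) lay close to the olfactory receptor median of 5.98. Fgf23 was slightly above it, at 6.175 and 6.25.

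Of the 4 FGF receptors with a row among the 42 genes 1 passed, and it rose. Fgfr1, found mainly on mesenchymal cells, had 7.23 and 7.15 in KO livers, against 6.71 on both control arrays. It was higher by 0.48 ± 0.10 (SE, n = 2 each), or 1.39-fold, with an adjusted p of 0.03 in the limma fit. Fgfr3 had 7.78 and 7.66 in KO livers, against 7.38 and 7.37 in control livers, so its groups did not overlap, but its limma adjusted p was 0.0829. Fgfr2 had 8.26 and 8.39 in KO livers, against 8.25 and 7.93 in control livers, where the nearest values of the groups were almost equal. Fgfrl1, a decoy-like receptor without a kinase domain, differed by 0.04. Fgfr4, the main FGF receptor of hepatocytes and not among the 42 genes, differed by -0.005 with a limma adjusted p of 0.982. Klb, its co-receptor beta-klotho, differed by -0.17 and did not pass.

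Among the collagen receptors, Ddr1 had the largest rise of the 42 genes. DDR1 is found mainly on epithelial cells and DDR2 mainly on mesenchymal cells. Ddr1 had 7.30 and 7.58 in KO livers, against 6.28 and 6.11 in control livers. Control values of Ddr1 lay close to the olfactory receptor median of 5.98, and its mean signal was below the 40th percentile of all genes. Its lowest KO value was above its highest control value by more than the gap within either group. The difference was 1.25 ± 0.14 (SE, n = 2 each), or 2.37-fold higher with a 95% interval of 1.88 to 2.99, and the adjusted p was 0.00473 in the limma fit. Ddr2 had 6.89 and 7.05 in KO livers, against 6.22 and 6.60 in control livers. Its difference of 0.56 ± 0.15 (SE, n = 2 each) had a limma adjusted p of 0.0617. With the spread prior held, the limma adjusted p was 0.0478 without control 2, where the difference was 0.75, but 0.136 without KO 1, 0.242 without KO 2 and 0.2 without control 1, where it was 0.37. Kit, the stem cell factor receptor, had 6.87 and 7.06 in KO livers, against 6.84 and 6.90 in control livers, and these groups overlapped. Mast cells carry KIT, and of 7 mast cell markers 1, Hdc, had a row, with a limma adjusted p of 0.18.

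None of the 6 Eph receptors or 5 ephrins, membrane ligands and receptors that act between touching cells, passed the test with limma or with the adjusted p-values of the authors' deposited table. At an unadjusted p under 0.05 in the limma fit there were 3 Eph receptors and 0 ephrins, against 3932 of all 12871 genes. The Eph receptors had a median log2 difference of 0.28. For 3 of the 6 both KO values lay above both control values, against 32.1% of all genes. Epha1 had 8.03 and 8.16 in KO livers, against 7.84 and 7.49 in control livers. Epha2, a receptor of epithelial cells, had 8.13 and 8.06 in KO livers, against 7.52 and 7.91 in control livers. Ephb4, the ephrin-B2 receptor of venous endothelium, had 8.50 and 8.62 in KO livers, against 8.28 and 8.19 in control livers. The limma adjusted p was 0.106 for Epha1, 0.152 for Epha2 and 0.103 for Ephb4. Efnb2, encoding the ligand ephrin-B2, differed by 0.08 and its groups overlapped. Among the other ephrins Efnb1 had 7.73 on both KO arrays, against 7.54 and 7.49 on the control arrays, with a limma adjusted p of 0.215. Efna1, a ligand of EPHA2, had a difference of -0.12, and Efna5 and Efnb3 lay within 0.07 of their controls. Epha7 and Epha10 had arrays of a genotype up to 0.62 and 0.56 apart, wider than their differences of 0.15 and 0.23.

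Of the 3 genes that are neither factors nor receptors, Erbin rose. ERBIN is a scaffold protein that binds ERBB2. Erbin had 9.72 and 9.59 in KO livers, against 9.16 and 9.19 in control livers, a difference of 0.48 ± 0.11 (SE, n = 2 each), or 1.39-fold, with an adjusted p of 0.0341 in the limma fit. Cep43 and Fgfr1op2 are known as fusion partners of FGFR1 in human blood cancers, and they differed by -0.10 and 0.08 without passing.

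**Figure D2:**
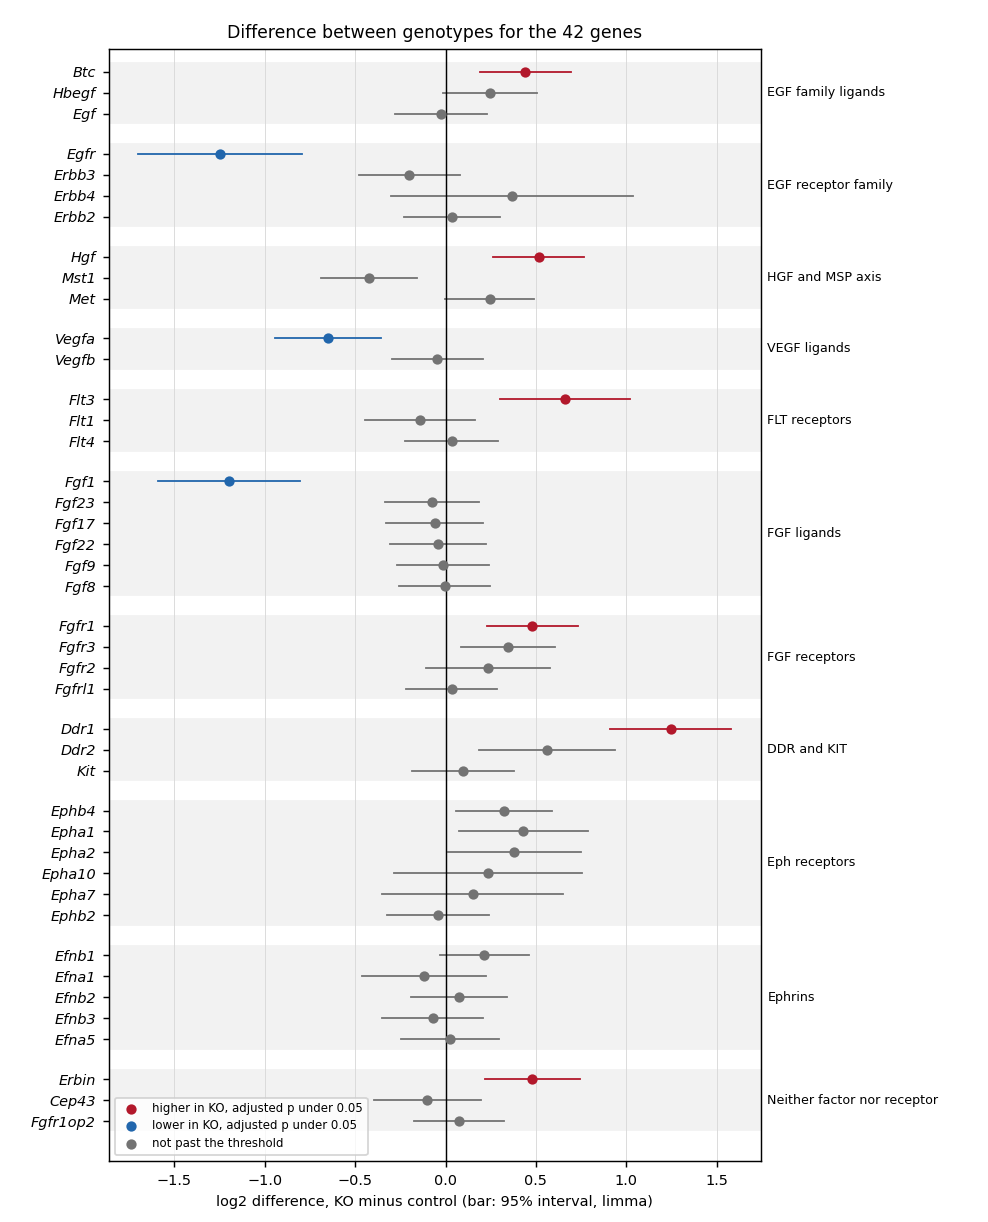
Log2 difference between KO and control livers (x axis, KO minus control) for each of the 42 genes (y axis, by family), with bars for the 95% interval of the limma fit. Red marks the 6 genes that rose, blue the 3 that fell and grey the 33 that did not pass; Ddr1 at 1.25 and Egfr at -1.25 lie at the ends.

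Other genes of the pathway were read from 5 lists of 125 genes in all, of which 100 had a row. In KO livers 28 of these 100 were higher and 3 lower (31.0%), and the median log2 difference was 0.13, against 15.0% and 0.005 over all genes. The lists were chosen with earlier results of these data known, so this comparison is not an independent test. With any 1 array left out and the fit repeated, the calls among the 100 were lost, as were those over all 12871 genes. Among 15 feedback regulators and ERK target genes 5 rose and 1 fell, and their median was 0.10. Ccnd1, encoding cyclin D1, had 10.07 and 10.48 in KO livers, against 8.41 and 8.31 in control livers, a 3.77-fold rise (limma adjusted p = 0.00255). Myc (0.97), Ier3 (0.81), Egr1 (0.78) and Spry1 (0.62), given as log2 differences, also rose, and Phlda1 was 2.01-fold lower. Among direct feedback genes of the cascade, Dusp6, the ERK phosphatase, differed by 0.28, Spry4 by -0.52 and Errfi1, an inhibitor of EGFR, by -0.01, and none of these 3 passed.

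The 33 adaptors and signal relays had 6 members higher and none lower with limma at an adjusted p under 0.05. This share of 18.2% lay near the 15.0% over all genes. An unadjusted p under 0.05 was found for 10 of the 33, against 3932 of all 12871 genes. Grb10, an adaptor that restrains insulin and IGF1 receptors, had 8.20 and 7.86 in KO livers, against 5.87 and 6.40 in control livers, a 3.72-fold rise (limma adjusted p = 0.00465). Log2 differences were 0.91 for Mapk3 (ERK1), 0.82 for Sos2, 0.74 for Gab2 and 0.70 for Cbl, and each of these rose. Grb2, an adaptor that links receptors to SOS proteins, differed by 0.03 and did not pass.

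Among 22 sheddases, activators, inhibitors and co-receptors 7 rose and 1, Hgfac, fell (36.4%, against 15.0% of all genes). Adam10, a protease that releases betacellulin and EGF from the membrane, had 8.72 and 8.76 in KO livers, against 7.67 and 7.75 in control livers, a 2.04-fold rise with a limma adjusted p of 0.00384. Rhbdf1, which encodes iRhom1, a partner of the sheddase ADAM17, was higher by 0.92 on the log2 scale (limma adjusted p = 0.00535), while Adam17 itself differed by 0.30 and did not pass. The membrane proteoglycans Gpc3 (1.54) and Sdc3 (0.58) and the hyaluronan receptor Cd44 (1.07), given as log2 differences, also rose. The control means of Gpc3 and Cd44 lay just below the olfactory receptor median. The KO arrays of Gpc3 were 8.03 and 6.97, against 6.01 and 5.90 in control livers.

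Of 17 other receptor tyrosine kinases 5 rose and none fell with limma (29.4%, against 15.0% of all genes), and 6 had an unadjusted p under 0.05, against 3932 of all 12871. The 5 were Pdgfrb (1.11) and Pdgfra (0.56), receptors of platelet-derived growth factors, Csf1r (1.10), the macrophage colony-stimulating factor receptor, Axl (0.90) and Ntrk2 (0.75), given as log2 differences. Both group means of Ntrk2 lay below the olfactory receptor median. The insulin receptor gene Insr differed by -0.04. Of 13 other ligands 5 rose and 1 fell (46.2%, against 15.0% of all genes). Those that rose were Gas6 (1.09), the ligand of AXL, Pdgfc (0.95), Pdgfa (0.84), Csf1 (0.78) and Pdgfd (0.75), again as log2 differences. The control mean of Pdgfd, at 5.24, lay below the olfactory receptor median and its KO mean close to it. Nrg4, a ligand of ERBB4, had 5.66 and 5.10 in KO livers, against 6.42 and 6.18 in control livers, and fell (limma adjusted p = 0.0312), with a KO mean of 5.38 below the olfactory receptor median. Tgfa, a ligand of EGFR, had 8.07 and 8.08 in KO livers, against 7.76 and 7.70 in control livers, and did not pass (limma adjusted p = 0.0748).

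Markers of other liver cells moved in the same samples. For each list the linear signals of its measured genes were summed on each array. The summed signal of 12 Kupffer cell and monocyte markers was 10810 to 12377 in KO and 5413 to 5850 in control livers. Of the 12, 11 rose (91.7% passed, against 15.0% of all genes). For the 13 stellate cell and fibroblast markers the sum was 8466 to 8565 in KO and 5095 to 6154 in control livers, and 9 rose (69.2%). Pdgfra, Pdgfrb and Csf1r are counted both here and among the kinases above. For 9 cholangiocyte and progenitor markers the sum was 3792 to 4183 in KO and 1083 to 1170 in control livers. Of these 7 rose (77.8%), while the defining keratins Krt7 and Krt19 did not pass. Much of that sum came from Spp1, and the other 8 markers summed to 1582 to 1696 in KO and 858 to 894 in control livers. Control means of Prom1 (5.375), Cldn7 (5.855) and Epcam (5.88), which rose, lay below the olfactory receptor median.

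The share that passed was 11.1% of the hepatocyte and 18.2% of the endothelial markers, near the 15.0% of all genes. Over 9 hepatocyte markers the sum was 63634 to 64963 in KO and 67428 to 67953 in control livers, and Asgr1 was the 1 marker that passed, lower in KO livers. Over 11 sinusoidal endothelial markers it was 6389 to 6433 in KO and 6123 to 6294 in control livers, with Cdh5 higher, Lyve1 lower and 9 not passing. Of 5 genes of the lymphocyte list with a row 1, Ptprc, rose (20.0%, near the 15.0% of all genes). Ptprc is not specific to lymphocytes, and Cd3e, Cd8a, Cd79b and Nkg7 did not pass. The sums over the 5 genes were 506 to 624 in KO and 397 to 404 in control livers. All 3 neutrophil markers with a row rose, while 15.0% of all genes passed. The sums over these 3 markers were 247 to 374 in KO and 111 to 125 in control livers. Control means of S100a8 (4.78), Retnlg (5.02) and S100a9 (5.86) lay below the olfactory receptor median. Of 6 erythroid and haematopoietic progenitor markers 1, Cd34, rose (16.7%, near the 15.0% of all genes). Their sums were 13246 to 19066 in KO and 12089 to 16153 in control livers. Of 5 proliferation genes 4 rose (80.0%, against 15.0% of all genes). Their list had sums of 522 to 725 in KO and 282 to 288 in control livers. Control means of Ccnb1 (5.2), Ccna2 (5.775), Mki67 (5.82) and Cdk1 (5.96), which rose, lay below the olfactory receptor median.

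The Kupffer cell, stellate cell, cholangiocyte, neutrophil and proliferation lists moved in samples where Ddr1, Hgf, Fgfr1 and Flt3 rose. Ddr1 is an epithelial receptor, Hgf and Fgfr1 are expressed by mesenchymal cells and Flt3 by blood cell precursors. The share that passed in the erythroid and haematopoietic progenitor list (16.7%) lay near the 15.0% of all genes. Which part the lists had in the rise of those genes was not tested. The log2 differences of Egfr, Fgf1 and Vegfa, which fell, ran from -1.25 to -0.65. Those of the 9 hepatocyte markers had a median of -0.06 and ran from -0.60 for Asgr1 to 0.045 for Hnf4a. The part of hepatocyte content in the 3 falls was not tested. In whole liver RNA, fewer cells of a type and less RNA per cell cannot be told apart.

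**Figure D3:**
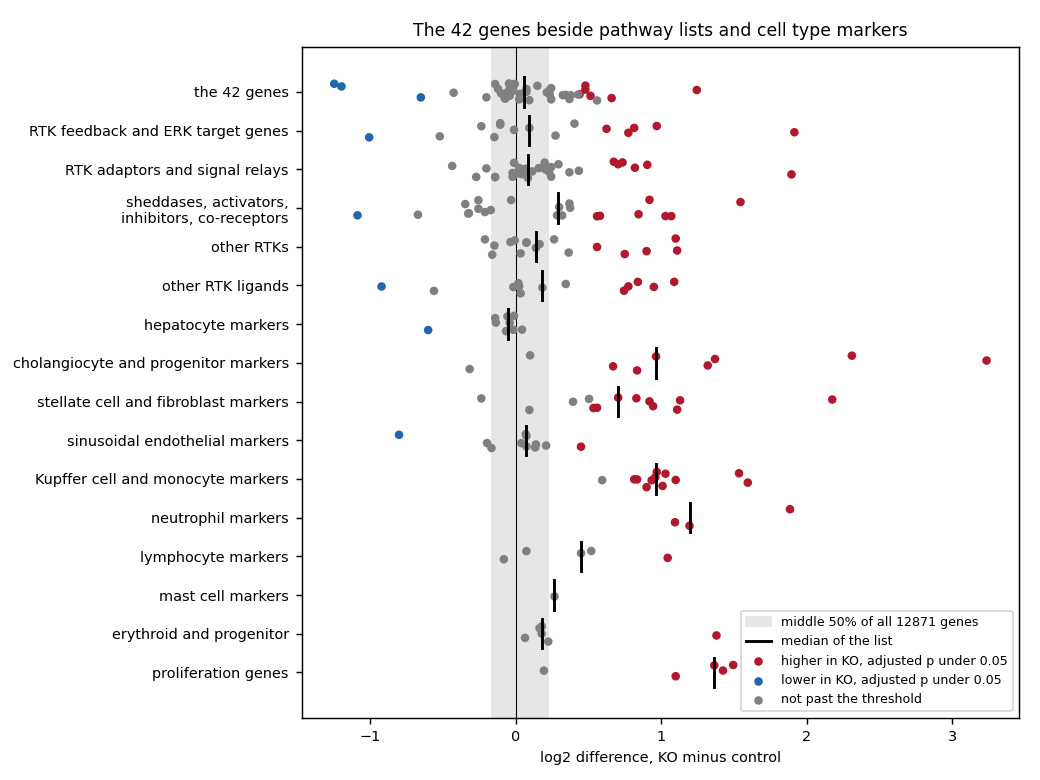
Log2 difference (x axis, KO minus control) of each gene in the set of 42, in the 5 pathway lists and in the 10 marker lists (y axis), where each point is a gene, black bars are medians and the grey band holds the middle 50% of all genes. Red and blue mark genes that passed. The median of the 42 genes is 0.06 and that of the Kupffer cell and monocyte markers 0.97.

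**Figure D4:**
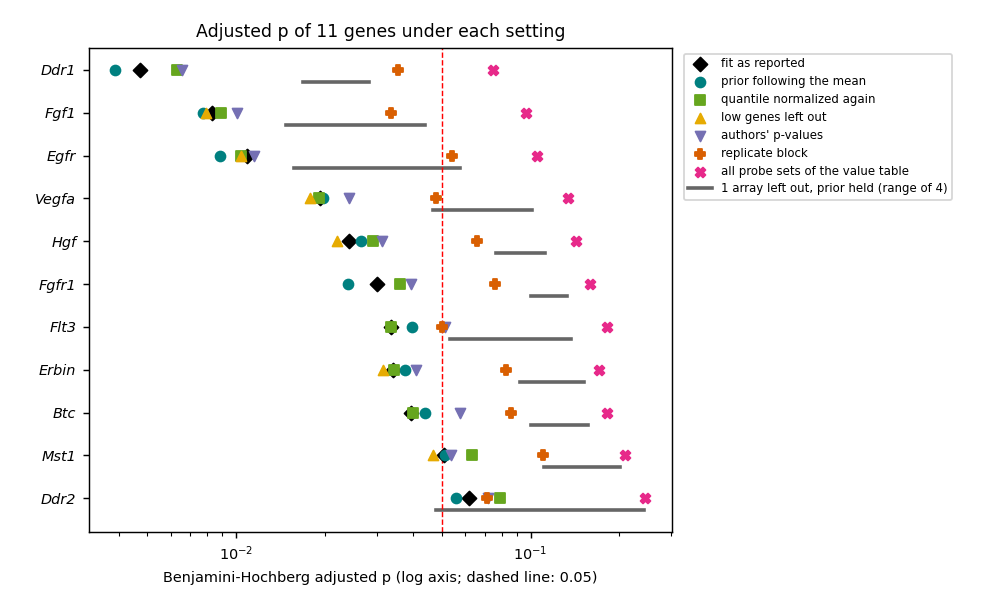
Adjusted p (x axis, log scale) of 11 of the 42 genes (y axis), the 9 that passed with Mst1 and Ddr2, under the reported fit and the other settings, with grey lines for the range over 4 fits that leave out 1 array each with the prior held. Fgf1 stays left of the dashed line at 0.05 in all settings drawn except the one that tests all probe sets. Ddr1 does so in those that include it. With low genes left out, Ddr1, Fgfr1, Flt3, Btc and Ddr2 were not in the fit and have no point. Not drawn are the fits that leave out 1 array and estimate the prior anew, in which no gene passed.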

How the data were processed

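Total liver RNA was hybridised to Affymetrix whole-transcript arrays. The deposited values are log2 signals made with Affymetrix Expression Console and RMA, per the submitters' processing notes, rounded to 2 decimals in the 5-week value table of 35556 probe sets. Neither software versions nor a genome build are given in the sources used here. A results table of the authors gives symbols, a log2 mean per genotype, a linear fold ratio and a p-value for 14996 probe sets, per the file headers; the test behind the deposited p-values is not stated. Group means of the value table matched the authors' means within 0.005. That results table has 4 more columns, for single arrays, whose names fit no sample label; they were not used. The 8-week value table was not used, since its probe set IDs are not paired with gene names in the tables used here, so the comparisons planned for 8 weeks were not run.

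Names came through RefSeq GRCm38.p6 from the accession for 13056 probe sets, the symbol for 987 and a synonym for 485; 380 kept their own name and 88 with several or no names were left out. Of the 1048 genes with several probe sets, the one with the highest mean over the 4 arrays was kept, leaving 12871 genes with no further filter. KO was compared with control (2 arrays each) by limma 3.58.1 in R 4.3.3 (lmFit, eBayes, no covariates), two-sided, with Benjamini-Hochberg adjustment over all 12871 genes and a threshold of 0.05. The fit was tested on simulated data.

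The 42 genes, the pathway lists and the marker lists were chosen with earlier results of these data known. The text names each of the 42 genes past the threshold or with an absolute log2 difference of at least 0.5, their ligand or receptor partners, rows that are neither, and up to 6 passing genes per list with exceptions. Alternatives were a prior following the mean, repeated quantile normalization, a filter at the 40th percentile, all probe sets, a replicate block, each array left out, and the authors' p-values. Single values of a few list genes are left out of the text.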

Additional observations from a re-analysis of the deposited data

How the results depend on the processing

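Of the 42 genes, 9 also passed with a prior following the mean or with repeated quantile normalization, 7 with the authors' deposited p-values (without Flt3 and Btc), and 6 with genes under the 40th percentile left out, where 21 of the 42 remained in the fit. With all 35556 probe sets tested, 0 of all 12871 genes passed with limma, and so 0 of the 42 (smallest adjusted p among them = 0.0748). The fitted prior then had 2.58 degrees of freedom, against 4.16. With the replicate block 3 passed (Ddr1, Fgf1 and Vegfa), but the labels do not say that the numbers pair the samples, and the replicate differences of both genotypes correlated at 0.043 across genes. With 1 array left out, 0 to 5 of the 42 passed, where the lone array of a genotype is assumed to vary like those of the other. In those fits 236 to 334 genes had no spread, as values are rounded to 2 decimals, and the prior had 2.45 or 1.68 degrees of freedom; why it was lower was not tested. Holding the prior at that of all arrays was added after seeing the data. Of the other pathway genes 31 passed, against 18 with the replicate block, where 837 of all 12871 genes passed. With all probe sets 0 of these pathway genes passed (smallest limma adjusted p = 0.0632), as did 0 of all 12871 genes. With 1 array left out and the prior estimated anew, the calls were lost among the pathway genes and over all genes alike. With the prior held, 16 passed without KO 1, 15 without KO 2, 15 without control 1 and 19 without control 2, beside 2, 3, 3 and 5 of the 42 genes.

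Genes that did not pass changed sign in some settings. Repeated quantile normalization gave log2 differences of -0.0213 for Flt4, -0.0175 for Fgfrl1 and -0.01 for Efna5. With 1 array left out, the log2 difference ranged from -0.07 to 0.02 for Egf (0.005 without KO 2), -0.035 to 0.775 for Erbb4, -0.035 to 0.105 for Erbb2, -0.02 to 0.09 for Flt4 and -0.135 to 0.015 for Fgf17. It ranged from -0.105 to 0.025 for Fgf22, -0.065 to 0.035 for Fgf9, -0.035 to 0.025 for Fgf8, -0.045 to 0.515 for Epha10 and -0.16 to 0.46 for Epha7. For Ephb2 it was -0.12 to 0.04, for Efna1 -0.275 to 0.035, for Efnb3 -0.165 to 0.025, for Efna5 -0.055 to 0.105 and for Cep43 -0.215 to 0.015. The causes were not tested. With 2 arrays per genotype the precision of every value is limited, and the 8-week comparisons planned were not run.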
